A study of Equus caballus with 2 samples.

Results

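Of 583026 CpGs read at least 20 times in both libraries, 1717 (0.294%) had a DNA methylation level in an equine sarcoid at least 50 percentage points above the level in tumour-distant skin. These gaining CpGs were chosen by their measured levels: reads of both strands of a CpG were summed in each library, the level was the percent of reads showing methylation, and the difference was sarcoid minus skin. The difference that chose them is therefore given as a description, without a test. In the opposite direction 4199 CpGs (0.720%) had a level at least 50 points lower in the sarcoid, and they are called losing CpGs here. In all, 1263512 CpGs were listed in either library and 1087925 in both.

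The study profiled 1 sarcoid and 1 piece of tumour-distant skin, both from horse 1, by reduced representation bisulfite sequencing (RRBS), to compare methylation of the tumour with that of skin. Sarcoids are locally invasive tumours of fibroblasts in the skin of horses, and bovine papillomavirus is commonly found in them. The labels name no treatment, and age and breed were not given in the sources used here. With a single library for each tissue, every difference below is between these libraries and not between conditions. Both tissues are mixtures of cells, and a higher level in the same cells cannot be told apart from a larger share of cells that carry the methylation. The tissue labels were not checked against marker genes, since genes were not analysed here. The skin library held 48650606 reads over 1701575 cytosines and the sarcoid library 35970547 over 1655782, with a median of 30 and 24 reads per CpG.

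In mammals, methyl groups are placed on the cytosine of CpG dinucleotides, usually on both strands, since the maintenance enzyme DNMT1 copies the mark onto the new strand after replication. CpG-dense stretches such as the islands at many promoters are mostly free of methylation, while scattered CpGs of the rest of the genome are mostly methylated, and neighbouring CpGs tend to share a state. Gain of methylation at CpG islands beside loss elsewhere is a textbook feature of many tumours. In RRBS, DNA is cut with the enzyme MspI at CCGG and short fragments are sequenced from their ends, so that CpGs close to each other on 1 strand are read by the same molecules. No gene, exon or repeat is named below, because no annotation matching the files was used here, and positions are those of the deposited files.

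Most gaining CpGs went from a low or intermediate level to a high one rather than from none to full methylation. Their median level was 28.4% in skin (quartiles 20% and 34.6%, range 0% to 50%) and 84.4% in the sarcoid (quartiles 76.6% and 90.5%, range 50% to 100%). A skin level above 20% and up to 40% was held by 1101 of them (64.1%), a level of at most 20% by 448 (26.1%) and one above 40% by 168 (9.78%). Only 35 had no methylated read in skin, and 70 were methylated in every read of the sarcoid. A switch from at most 20% to at least 80% was seen at 72 gaining CpGs (4.19%), and one from at most 10% to at least 90% at 0 of 1717, which allows a share of up to 0.175%. By contrast, 321 (18.7%) went from a skin level of 35% or more to 90% or more in the sarcoid.

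The gain itself had a median of 54.2 points and reached 82.9 points. It lay under 55 points at 961 CpGs (56.0%), from 55 to under 60 at 435, from 60 to under 70 at 273 and at 70 or more at 48 (2.80%). Many lay close to the limit: 460 gained 50 to under 52 points, 38 of these exactly 50, while 534 CpGs just short of the limit gained 48 to under 50. On chromosome 8 at 9228672, for example, the level was 35.7% over 28 reads in skin and 85.7% over 28 in the sarcoid, exactly at the limit. The CpG of chromosome 14 at 23618139, with 22% over 109 reads in skin and 72% over 25 in the sarcoid, missed it by under 0.1 points and was left out.

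Somewhat more than 50% of the gaining CpGs lay near another one. Another gaining CpG was found within 100 bp of 956 of them (55.7%, Wilson 95% interval 53.3 to 58.0), against 0.894% of all tested CpGs. With a limit of 60 points in place of 50 it was 155 of 321 (48.3%), so that more were alone. Another losing CpG lay within 100 bp of 46.6% of losing CpGs. Joined at gaps of at most 100 bp, the 1717 CpGs formed 761 single CpGs, 196 pairs, 119 clusters of 3 to 5 and 18 of 6 or more. The 333 clusters of at least 2 had a median span of 31 bp and a longest span of 143 bp, counting the first and the last cytosine. A span of at most 75 bp, the length of 1 read, was found for 309 of them (92.8%). Members of such a cluster are largely read by the same molecules and are not separate measurements of the tissue. The intervals here and below cover counting error only.

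The largest cluster, on chromosome 21 from 2864069 to 2864180, held 11 gaining CpGs among 13 tested. Skin levels there ran from 18.8% to 43.8% over 32 to 95 reads, and sarcoid levels from 64.1% to 100% over 20 to 39 reads. The mean difference over its CpGs was 57.8 points. Around it, 3 tested CpGs within 500 bp were higher in the sarcoid by 14.7 to 26.7 points.

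In all, 9 clusters held 8 or more gaining CpGs: 1 of 11, 2 of 10 and 6 of 8. Of the 6 with 8, the 3 with the largest mean gain are described, and the other 3, on chromosomes 3, 4 and 12, had mean gains of 53.9, 56.0 and 57.6 points. Chromosome 4 held 3 of the 9, and 2 of them are described here. From 58138796 to 58138856, 10 of 10 tested CpGs gained 52.6 to 73.6 points, with 26.4% to 43.2% in skin over 37 to 57 reads and 90% to 100% in the sarcoid over 20 to 26 reads. From 58152100 to 58152243, 8 of 8 gained 58.1 to 69.2 points, and this longer cluster held skin levels of 2 kinds. Its first 4 CpGs lay between 24.3% and 28.6% in skin and its last 4 between 5.13% and 6.41%, while in the sarcoid the first 4 had 86.7% to 88.9% and the last 4 had 68.6% to 74.3%.

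On chromosome 5 from 32270599 to 32270661, in a tile of 32 listed CpGs, the pattern started from almost unmethylated DNA. The 12 tested CpGs, 10 of them gaining, had a mean of 10.3% in skin (SD over CpGs 4.38, range 3.09% to 19.8%) and 66.5% in the sarcoid (SD 7.80, range 44.4% to 71.8%). This was the best read of the clusters described, with 97 to 101 reads per CpG in skin and 71 to 74 in the sarcoid, and 12 of the 12 had at least 10 reads on each strand in both libraries. The smallest difference was 36.8 points on the plus strand and 43.4 points on the minus strand.

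The other 2 clusters of 8 with a large mean gain lay on chromosomes 10 and 24. On chromosome 10 from 15682358 to 15682452, 8 of 10 CpGs gained at least 50 points, and skin levels were uneven. They ran from 9.52% to 47.8% over 20 to 72 reads, with 41.9% to 100% in the sarcoid over 21 to 43 reads. At least 10 reads on each strand in both libraries were present at 0 of the 10. The 23 tested CpGs within 500 bp of this cluster differed by -24.1 to 46.4 points, with a mean of 21.5. On chromosome 24 from 46123391 to 46123431, 8 of 10 CpGs gained, from 22.2% to 36.6% in skin over 65 to 82 reads to 77.3% to 92.6% in the sarcoid over 22 to 27 reads.

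**Figure D1:**
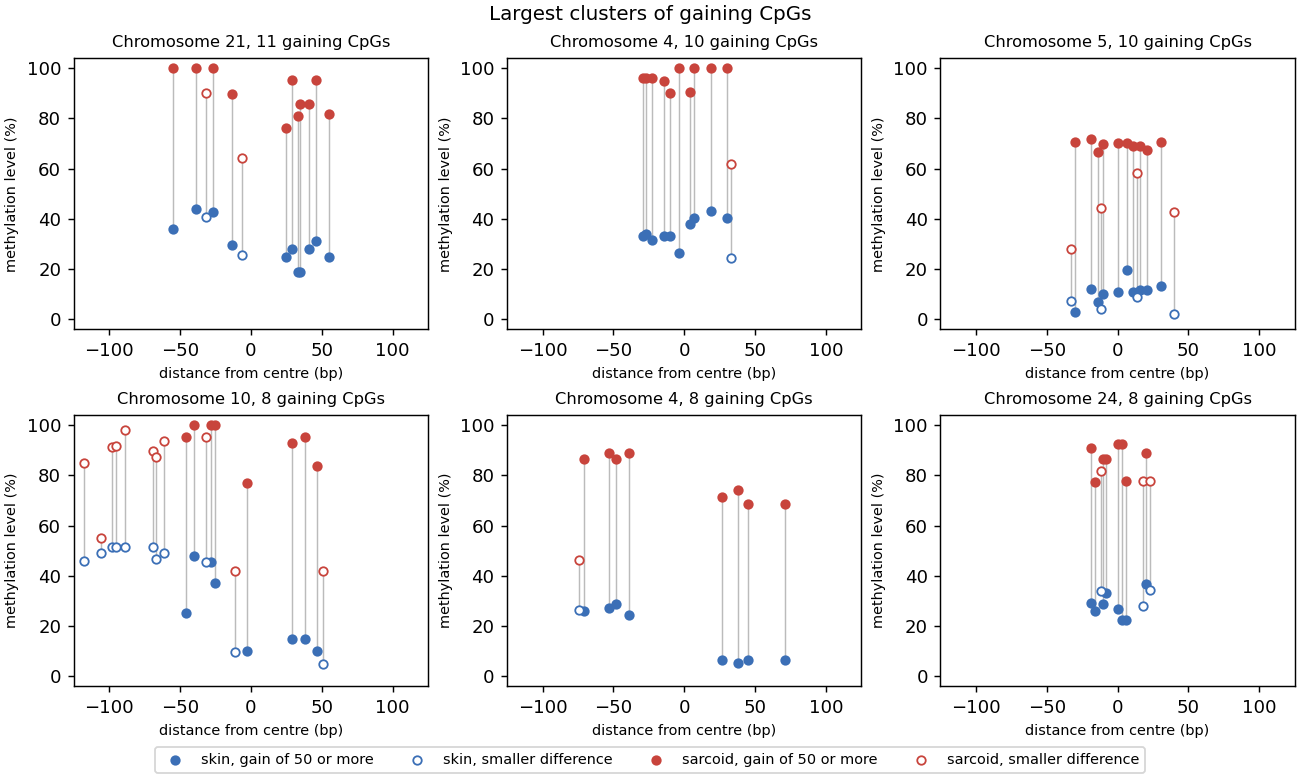
Methylation level in percent (vertical axis) of tested CpGs, against their distance in bp from the centre of each of 6 clusters of 8 or more gaining CpGs (ties at 8 taken by mean gain), for skin (blue) and sarcoid (red). Filled points are gaining CpGs, open points are CpGs with a smaller difference, and grey lines join the libraries; every filled red point lies at least 50 points above its blue point, and levels form short blocks of like values that share reads.

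Neighbours of gaining CpGs were also higher in the sarcoid, and the difference faded with distance. CpGs within 25 bp of a gaining CpG were on average 38.6 points higher in the sarcoid (3811 pairs), those at 51 to 75 bp 26.9 points higher and those at 76 to 100 bp, beyond the length of 1 read, 25.4 points higher (692 pairs). At 101 to 200 bp the mean was 23.6 points, at 201 to 500 bp 12.4 points, at 501 to 1000 bp 7.46 points and at 1001 to 5000 bp 2.39 points. Around all tested CpGs the mean lay between -1.72 and -0.628 points in the same classes of distance. The classes rest on unlike sets of gaining CpGs: 1453 had a neighbour within 25 bp, 377 at 76 to 100 bp and 425 at 101 to 200 bp. Means are over pairs, so gaining CpGs with many neighbours weigh more.

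Neighbours that themselves missed the 50 point limit in either direction showed the same decline. Their mean difference was 28.4 points within 25 bp, 19.1 points at 76 to 100 bp, 17.6 points at 101 to 200 bp and 0.790 points at 1001 to 5000 bp. A neighbour at 101 to 200 bp was at least 20 points higher in 53.9% of pairs and at least 20 points lower in 2.15%, against 2.53% and 4.09% around all tested CpGs. Losing CpGs had a profile of similar size and opposite sign, with -36.1 points within 25 bp, -22.6 points at 101 to 200 bp and -5.08 points at 1001 to 5000 bp. Gaining and losing CpGs were seldom side by side: 2 of the 1717 gaining CpGs had a losing CpG within 100 bp, whereas 2.07% of all tested CpGs had one.

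**Figure D2:**
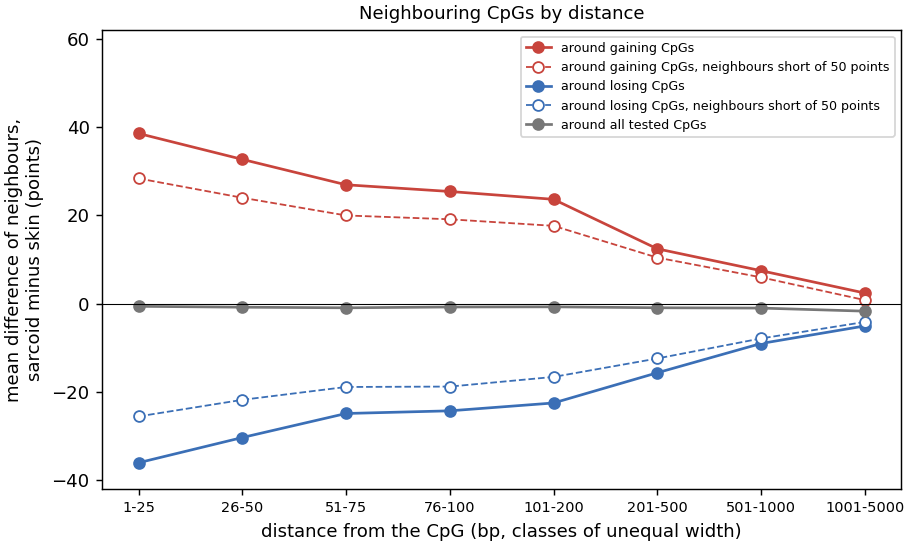
Mean difference of neighbouring CpGs, sarcoid minus skin in points (vertical axis), by distance in bp in classes of unequal width (horizontal axis), around gaining, losing and all tested CpGs. Dashed lines leave out neighbours that gained or lost at least 50 points; around gaining CpGs the mean declines from 38.6 points within 25 bp to 2.39 points at 1001 to 5000 bp, while around all tested CpGs it stays just below 0.

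Lone gaining CpGs among unchanged neighbours were a minority. Of the 1717, 1677 had at least 1 neighbour with 20 reads in both libraries within 100 bp, and for 108 of these (6.44%, interval 5.36 to 7.72) every such neighbour differed by under 20 points either way. The same held for 68.3% of all tested CpGs with neighbours, for 42.3% of those with a skin level above 20% and up to 50%, and for 13.2% of losing CpGs. A further 597 gaining CpGs (34.8%) had no gaining CpG nearby but a neighbour at least 20 points higher, 16 had neighbours that moved past 20 points only downwards, and 40 had no neighbour to compare.

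The 108 lone CpGs lay in sparser tiles than the 956 with a gaining partner, with a median of 6 against 11 CpGs listed per 1 kb. They also had fewer neighbours, a median of 2 against 5. Both sets are defined by their neighbours, and a CpG with few of them more easily has only unchanged ones. These differences are thus partly built into the definitions, and no comparison at equal numbers of neighbours was made. The levels of the lone CpGs themselves were similar, with medians of 25.7% in skin and 84.6% in the sarcoid, against 28.0% and 84.8%. What surrounded them differed. In 38 of the 108 the mean of the neighbours was at most 20% in both libraries, so that 1 CpG was methylated within DNA of low methylation. In 28 the neighbours were at 60% or more in both libraries, and the lone CpG, with a median of 30% in skin and 86.7% in the sarcoid, was low among methylated neighbours in skin only. The nearest neighbour was a median of 30 bp away, and within 10 bp for 28 of them.

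Of the 108 lone CpGs, 64 had at least 2 neighbours, and the 5 of largest gain among these are described. The 44 with 1 neighbour reached gains of 73.8 points. At position 9972776 of chromosome 8 the level was 23.8% over 21 reads in skin (interval 10.6 to 45.1) and 88.9% over 36 reads in the sarcoid (74.7 to 95.6), all on the minus strand. Its 2 neighbours, the nearer 4 bp away, had means of 3.09% and 4.29% and differed by at most 2.40 points. On chromosome 19 at 33050232 the level was 14.3% over 49 reads and 81.8% over 33 reads, all on the plus strand, with 3 neighbours at means of 16.8% and 15.4%. A CpG of chromosome 14 at 7395465 had 28.8% over 52 reads and 92.0% over 25 reads, between 2 neighbours at means of 67.1% and 68.4%.

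At the other 2 of these 5 lone CpGs, the strands behind the level differed between the libraries. The largest gain of all, 82.9 points on chromosome 5 at 45149891, came from 2.27% over 44 reads in skin, all of the minus strand, and 85.2% over 115 reads in the sarcoid, of which 99 were of the plus strand. The minus strand, the one read in both libraries, had 2.27% in skin and 0% over 16 reads in the sarcoid, and the plus strand 99%. On chromosome 22 at 36502998 the minus strand likewise had 4.76% over 21 reads and 0% over 12, while 36 reads of the plus strand, read in the sarcoid alone, gave 91.7%. Neither position was higher in the sarcoid on the strand that both libraries shared.

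A strand listed in only 1 of the libraries was involved at 124 gaining CpGs (7.22%), against 6.20% of all tested CpGs and 8.69% of losing CpGs. At least 10 reads of the same strand in both libraries were present at 1713 of the 1717. On such a strand 1565 (91.1% of the 1717) gained at least 50 points. Another 13 (0.757% of the 1717, interval 0.443 to 1.29) stayed under 25 points on every shared strand. These 13 were all among the 124. The rule chose on the same reads, and the 670 CpGs read on 1 strand only had to gain 50 points on it, so these counts describe the choice and are no check of it. By neighbourhood, 8 of the 108 lone CpGs (7.41%) and 0 of the 956 with a gaining partner stayed under 25 points.

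Both strands were listed in both libraries at 923 gaining CpGs (53.8%), the plus strand alone at 341 (19.9%) and the minus strand alone at 329 (19.2%). Among all tested CpGs these shares were 63.5%, 15.2% and 15.0%. CpGs read on 1 strand only gained at least 50 points in 0.380% of cases and those with 10 reads on each strand in both libraries in 0.202%. Losing CpGs had a gap in the same direction, with 1.06% and 0.467%, and strand and depth were not separated here. Of the 516 gaining CpGs with 10 reads on each strand, 510 gained at least 25 points and 207 at least 50 points on each strand. Since the rule used these same reads, this describes the choice. The levels of the strands differed by 30 points or more at 3.29% of the 516 in skin and at 3.68% in the sarcoid, against 13.2% and 13.3% of all tested CpGs with such reads. The median difference between the strands went the other way. It was 8.73 points in skin and 8.19 in the sarcoid at gaining CpGs, against 3.83 and 4 at all tested CpGs. Both comparisons use the reads of the rule and describe the choice.

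The CpGs that gained most on both strands came from 2 places. At 20 or more reads on each strand in both libraries there were 114 gaining CpGs, and those with the largest smaller strand gain were 3 CpGs of chromosome 3 between 29156228 and 29156238 and the first CpG of the chromosome 5 cluster, at 32270599. At 29156238 the plus strand had 23.8% over 21 reads in skin and 90.5% over 21 in the sarcoid, and the minus strand 21.2% over 33 reads and 86.2% over 29. At 32270599 the plus strand had 6.52% over 46 reads and 70% over 30, and the minus strand 0% over 51 reads and 70.7% over 41. The same stretches gave the 5 largest gains among the 169 gaining CpGs with 50 or more reads in both libraries, 65.6 to 67.5 points. Of these, 4 lay between 29156217 and 29156238 on chromosome 3, where 54 reads in skin and 50 or 51 in the sarcoid covered each, so they are not separate observations.

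A measure that the choice did not use was the opposite strand. CpGs with 20 reads in both libraries on 1 strand and 10 on the other were chosen by a gain of at least 50 points on the first strand alone, and the other strand was then read. The plus strand chose 382 of 136496 CpGs (0.280%) and the minus strand 459 of 136430 (0.336%), 788 CpGs in all. On the chosen strand the mean was 25.9% in skin and 82.4% in the sarcoid. On the other strand it was 31.5% in skin and 66.7% in the sarcoid, a difference of 35.1 points (SD over 841 measurements 19.6), against 56.5 points on the chosen strand and -1.07 points over all CpGs with such reads.

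The strand that had no part in the choice was thus higher in the sarcoid too, by less than the chosen strand. The other strand was at least 25 points higher in 621 of the 841 measurements (73.8%), where 3.47% of all CpGs were, and at least 50 points higher in 205 (24.4%), where 0.414% were. It was not higher in 84 (9.99%), and in 65 of these 84 its level was at most 10% in both libraries. The order mattered little, with 35.3 points on the minus strand after choice on the plus strand and 35 points in the reverse order. CpGs chosen by a loss gave -37.3 points on the other strand.

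Neighbours on the chosen strand went with the gain on the other strand. Where another CpG within 100 bp had gained at least 50 points on that strand, the other strand was 37.5 points higher on average (530 measurements, SD 18.8), and where a neighbour was at least 20 points higher it was 34.0 points (258, SD 18.2). For the 42 with unchanged neighbours it was 22.5 points (SD 22), with 20 at least 25 points higher and 13 (31%) not higher at all. The 9 without a neighbour had a mean of -5.66 points, and 2 had neighbours that moved only downwards. These are descriptions over CpGs of 1 pair of libraries, and the difference between the classes was not tested.

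**Figure D3:**
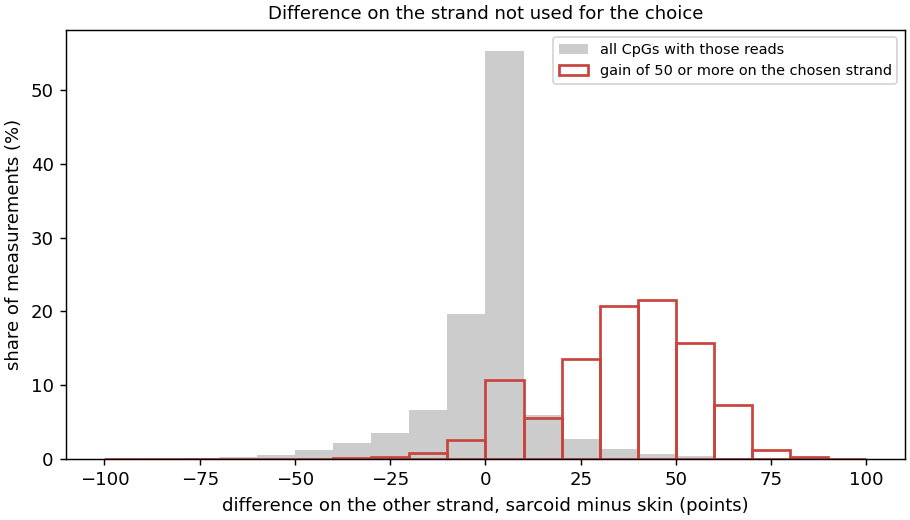
Share of measurements in percent (vertical axis) by the difference on the strand not used for the choice, sarcoid minus skin in classes of 10 points (horizontal axis), for 841 measurements with a gain of at least 50 points on the chosen strand (red outline) and for all CpGs with those reads (grey). The outlined distribution has its highest class at 40 to 50 points and a smaller group at 0 to 10 points, where 10.7% of the measurements lie; the grey one is centred near 0.

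Gaining CpGs were spread over tiles listing few or a moderate number of CpGs and were rare in tiles listing the most. The share of tested CpGs that gained was 0.388% (interval 0.353 to 0.426) in 1 kb tiles listing 5 or fewer CpGs, 0.380% at 6 to 10, 0.305% at 11 to 20, 0.187% at 21 to 40 and 0.0600% (0.0406 to 0.0886) above 40. The sparsest class held 434 gaining CpGs (25.3% of them, against 19.2% of tested CpGs) and the densest 25. Median density was 9 CpGs per tile for gaining, 8 for losing and 12 for all tested CpGs. Losing CpGs thinned out with density too, from 1.15% to 0.166%, and were more frequent than gaining ones in every class. The ratio of gaining to losing CpGs was 0.336 in the sparsest class, 0.553 at 21 to 40 CpGs and 0.362 above 40.

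Skin level moved with density: tested CpGs had a median of 64.7% in skin in tiles of 5 or fewer CpGs and of 0% in tiles of more than 40. A CpG above 50% in skin could not enter the choice, and gains were unequal below that. The gaining share over all tiles was 0.0425% of CpGs at a skin level of at most 5%, 0.809% above 5% up to 20%, 2.24% above 20% up to 35% and 0.927% above 35% up to 50%. Among CpGs with a skin level above 20% and up to 50%, the share was 1.36% in the sparsest tiles, 1.75% at 6 to 10 CpGs, 1.80% at 11 to 20, 1.21% at 21 to 40 and 0.676% above 40, so the sparsest class no longer ranked first.

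Levels differed between classes of density, without a steady order. At 21 to 40 CpGs per tile, 127 of 256 gaining CpGs (49.6%) started at a skin level of at most 20%, against 22.8% in the sparsest tiles. The median levels of the 256 were 20.6% in skin and 77.6% in the sarcoid. All tested CpGs differed in the same direction. Of those at up to 50% in skin, 10646 of 106010 were above 20% at 21 to 40 CpGs, against 24624 of 43654 in the sparsest tiles. Above 40 CpGs the medians of the 25 gaining CpGs were 26.6% and 85.2%, near the 29.3% and 86.4% of the sparsest tiles. A gaining partner within 100 bp was present for 38.9% of gaining CpGs in the sparsest tiles, 63.4% at 11 to 20 CpGs and 68.8% at 21 to 40. Unchanged neighbours only were found for 13.1% of those with neighbours in the sparsest tiles, 3.91% at 21 to 40 and 12.5% (3 of 24) above 40. Denser tiles list more CpGs that can be neighbours. The same shares over all tested CpGs of each class were not computed, so these have no background beside them. Of the 25 gaining CpGs in the densest class, 15 had a gaining partner.

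**Figure D4:**
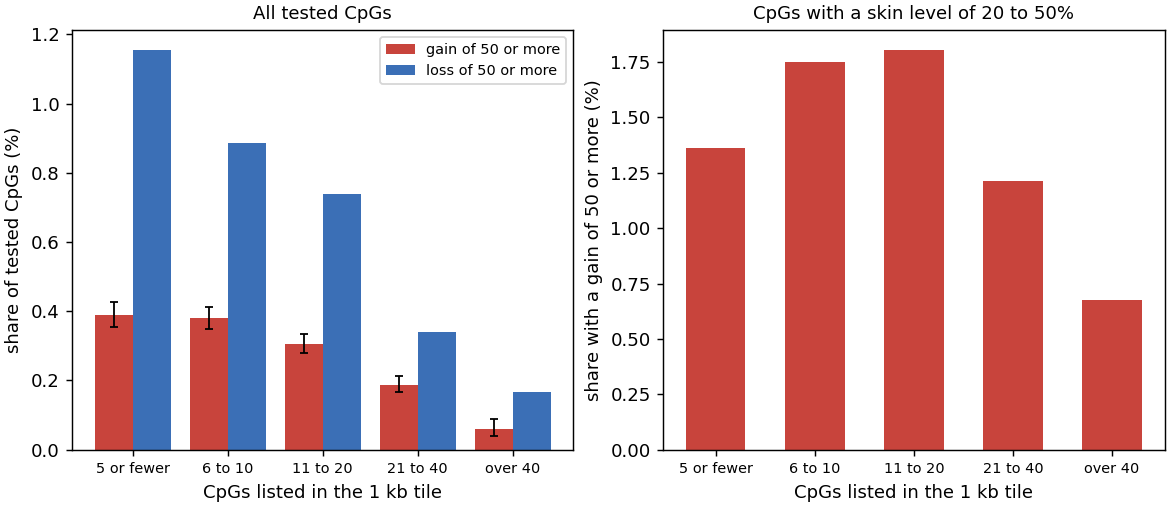
Left, share of tested CpGs in percent that gained (red, with Wilson 95% intervals) or lost (blue) at least 50 points, by the number of CpGs listed in their 1 kb tile. Right, the share that gained among CpGs with a skin level above 20% and up to 50%; on the left gains decline from 0.388% to 0.0600%, and on the right the highest bar, 1.80%, is at 11 to 20 CpGs per tile.

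In all, 1084 tiles held a gaining CpG and 142 held 3 or more. Of the 7645 tested CpGs in these 1084 tiles, 4455 (58.3%) were at least 20 points higher in the sarcoid, against 5.26% of all tested CpGs, although the tiles were picked for holding a gain. The 7645 and the 4455 both include the 1717 gaining CpGs, which pass 20 points by the rule, so the choice itself raises this share. Among 933 such tiles with 3 or more tested CpGs, every tested CpG was at least 20 points higher in 158 (16.9%), and the gaining CpG was the only one past 20 points in 74 (7.93%).

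Gaining CpGs occurred on 31 of the 31 chromosomes in the data, numbered 1 to 31, at unequal rates. No sex chromosome was among them. Chromosome 4 had the highest share, with 93 of 15757 tested CpGs (0.590%, interval 0.482 to 0.722), followed by chromosome 22 with 117 of 23926 (0.489%) and chromosome 21 with 65 of 13597 (0.478%). The lowest shares were on chromosome 19, with 7 of 7151 (0.0979%, interval 0.0474 to 0.202), chromosome 20 with 19 of 13296 (0.143%) and chromosome 9 with 22 of 12615 (0.174%). Chromosome 4 was the only one of the 31 with more gaining than losing CpGs, 93 against 54. Neighbouring CpGs are not independent, so the intervals of these shares are too narrow.

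The position of chromosome 4 rested on 1 stretch. Its megabase from 58000001 to 59000000 held 66 of the 93, among 641 tested CpGs. The 66 lay in 12 clusters between 58132413 and 58221930. Their levels ran from 0% to 44.3% in skin (median 14.6%) and from 50% to 100% in the sarcoid (median 74.2%). Without that megabase, 27 of 15116 CpGs of chromosome 4 gained (0.179%) and 50 lost (0.331%). The next megabases were chromosome 13 from 6000001 to 7000000, with 22 gaining CpGs in 12 clusters among 2502 tested, and chromosome 22 from 48000001 to 49000000, with 21 in 14 clusters among 1859 tested. These 3 held 6.35% of all gaining CpGs. In the order given, 10.3%, 0.879% and 1.13% of their tested CpGs gained, against 0.294% of all tested CpGs. Of 2254 megabases with tested CpGs, 580 held at least 1 gaining CpG, and 102 with 5 or more held 863 (50.3%). The share of tested CpGs in these 102 was not computed, so the 50.3% has no background beside it.

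The 10 chromosomes 5, 6, 7, 12, 18, 21, 22, 25, 28 and 29, were read more deeply in the sarcoid relative to skin, by 0.216 to 0.328 (log2) over the median chromosome, against -0.131 to 0.114 on the other 21. In reads, the sarcoid was still the shallower library there, with a median of 43 per tested CpG against 52 in skin. On the 10, 720 of 203318 tested CpGs gained (0.354%, range over chromosomes 0.239% to 0.489%), and on the other 21, 997 of 379708 (0.263%, range 0.0979% to 0.590%). The ranges overlap. Among CpGs with 20 to 49 reads in each library, where median depth was 35 and 29 reads on both sets of chromosomes, the shares were 0.492% and 0.333%. Losing CpGs made up 1.15% and 0.493% of tested CpGs on the same sets, so both directions were more frequent on the 10. Skin level and density were not balanced between the sets, and their part in this gap was not tested.

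**Figure D5:**
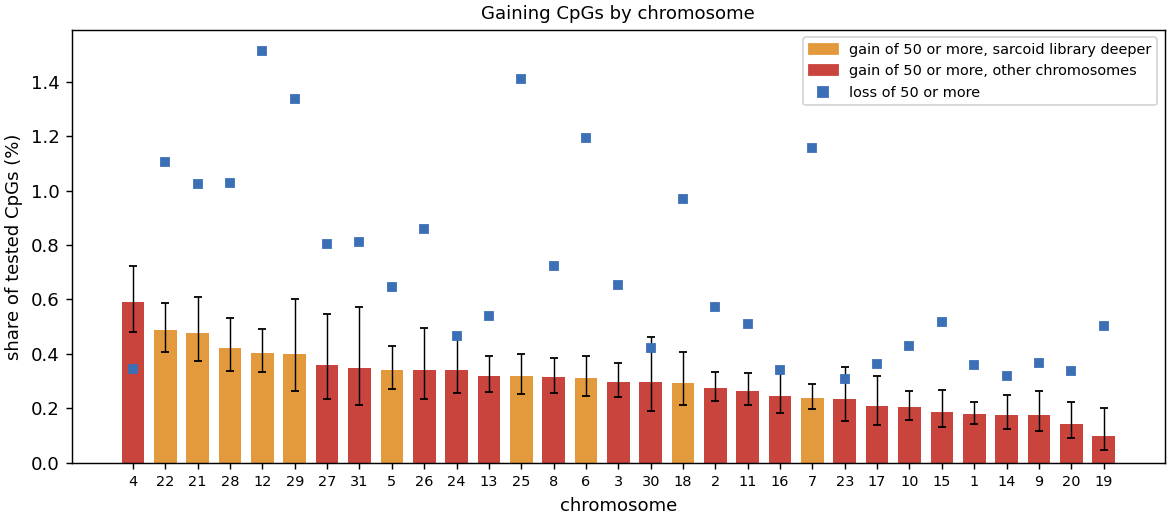
Share of tested CpGs in percent that gained at least 50 points on each of the 31 chromosomes, in order of that share, with Wilson 95% intervals. Orange bars are the 10 chromosomes whose sarcoid depth relative to skin lay above that of the median chromosome by more than 0.2 (log2). Red bars are the other 21, and blue squares the share that lost at least 50 points. Chromosome 4 stands first with 0.590% and is the only chromosome whose blue square lies below its bar.

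Depth went with the number of gaining CpGs. The share that gained was 0.435% of CpGs with 20 to 29 reads in the shallower library, 0.255% at 30 to 49 reads and 0.144% at 50 to 99. At 100 reads or more it was 0 of 11162, which allows a share of up to 0.0269%, whereas 12 CpGs of that class lost at least 50 points. Losing CpGs declined as well, from 0.924% to 0.430% over the first 3 classes. Gaining CpGs had a median of 49 reads in skin and 30 in the sarcoid, against 54 and 39 for all tested CpGs. The median log2 of sarcoid over skin reads was -0.71 at gaining CpGs, -0.37 at losing CpGs and -0.51 over all tested. The order was the same within the 10 deeper chromosomes (-0.61, -0.29 and -0.38) and within the other 21 (-0.86, -0.50 and -0.60). The part of depth in the choice was not tested.

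The authors' deposited table of differences, which held chromosome 1 only, listed 70 of the 70 gaining CpGs of that chromosome. The differences in the authors' deposited table, turned to sarcoid minus skin, ran from 50 to 71.3 points with a median of 53.2, and 69 lay within 0.5 points of the value computed here. There, in the authors' deposited table, 67 of the 70 had a q-value below 0.01, and the largest q-value was 0.0240. The share of all 74187 CpGs listed there with such a q-value was not computed, so the 67 has no background beside it. The rule chose large differences in the same reads, which favours small q-values. With 1 library per tissue, no spread between samples enters them. The authors' table and the values here rest on the same reads, so the table adds no further measurement.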

How the data were processed

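RRBS libraries of tumour-distant skin and of sarcoid were compared. For each CpG cytosine on each strand, the deposited files hold the count of reads covering it and the percent of them showing C or T, per the file headers. BSMAP, FastQC and methylKit are named per the submitters' processing notes, and no build is given in the sources used here. The authors also deposited p-values, q-values and a score of methylation difference per CpG for chromosome 1, per the file headers.

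Methylated reads were coverage times percent C, rounded; 0.567% of cytosines in skin and 0.543% in sarcoid missed a whole number by more than rounding allows and were kept. Strands were merged (minus strand position less 1). Neighbours had 20 reads in both libraries and counted as unchanged when they differed by under 20 points. Tile density is the number of CpGs listed in either library per 1 kb. Named CpGs were the 6 clusters with most members (ties, here 6 clusters of 8 for 3 places, by mean gain), the 5 largest gains with 50 reads in both libraries, the 5 largest with at least 2 neighbours, all unchanged, the 4 largest on both strands, and the extreme chromosomes and megabases. The members and these rules were chosen with earlier results of these data known. No test was run, with 1 library per tissue. Wilson 95% intervals and limits for counts of 0 (3 counts) cover counting error only, since copies made by PCR were not told apart from separate molecules. The scripts were tested on simulated data. Figures were drawn with matplotlib 3.10.9 and values computed with pandas 2.3.3, SciPy 1.17.1 and NumPy 2.4.6 under Python 3.11.15.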

Additional observations from a re-analysis of the deposited data

How the results depend on the processing

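The number of gaining CpGs and their shares follow the limits that define them. With a minimum of 10, 30 or 50 reads there were 4126, 779 or 169 gaining CpGs (0.470%, 0.212% and 0.132% of those tested), and with a gain of 40 or 60 points 5719 or 321 (0.981% and 0.0551%). The mean of both strand levels gave 517 (0.202%), the plus strand alone 861 (0.315%), the minus strand alone 979 (0.361%), and 997 lay outside the deeper chromosomes.

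The share with a gaining partner within 100 bp was 51.1%, 53.0% and 52.1% at 10, 30 and 50 reads, 62.6% and 48.3% at 40 and 60 points (the only setting of those run under which most were without a partner), 58.4% on the minus strand and 51.9% with neighbours within 50 bp. The share with unchanged neighbours only was 12.7% at 10 reads, 2.38% at 50 reads, 9.48% and 8.57% at 40 and 60 points, 8.29% without cytosines whose methylated reads were not whole, 4.46% for the mean of strand levels and 8.37% on the plus strand. It was 2.86% and 9.42% with limits of 10 and 25 points for an unchanged neighbour and 5.35% with neighbours of 10 reads. The share in tiles of 5 or fewer CpGs was 29.5%, 21.7% and 13.6% at 10, 30 and 50 reads, 14.3% for the mean of strand levels, 23.0% on the minus strand and 42.5% when tiles counted CpGs with 20 reads in both libraries. The share with 25 points on each strand was 91.2% at 40 points, and 100% at 60 points, at 50 reads and for the mean of strand levels. The share on the deeper chromosomes was 37.4%, 48.7% and 55% at 10, 30 and 50 reads, 39.2% and 44.5% at 40 and 60 points and 45.3% on the plus strand.

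Unlike sets of CpGs enter under these settings, and the causes were not tested. The other settings stayed within the counting interval, or within 1.5 times the count. They include leaving out the 3 megabases with most gaining CpGs, a setting chosen after seeing the data, which left 1608. On the strand not used for the choice the mean gain was 36.1 points when 20 reads were required there. At 20 reads the level of a single CpG has a wide interval.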
